A study of Homo sapiens with 6 samples.

Results

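This account follows 10 genes of the canonical Wnt pathway in HepG2 cells given atractylon. They are beta-catenin (CTNNB1), its DNA-binding partner TCF7L2, and the Wnt-responsive genes AXIN2, LGR5, GLUL, TBX3, NKD1, SP5, RNF43 and ZNRF3. The genes were taken by name, and every transcript of the deposited table that matched one of them in GENCODE 29 was kept. All 10 were found among 33791 matched genes, and all 10 were among the 12302 tested. HepG2 cells come from a human liver tumour. Atractylon is a sesquiterpenoid found in the rhizomes of Atractylodes plants. The 6 libraries were 3 of HepG2 cells treated with 20 µM atractylon and 3 of HepG2 cells kept without it. Both groups were grown in the same medium, and the controls are described as untreated. The length of treatment and a vehicle were not given in the labels. The series addressed invasion and migration of liver cancer cells.

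In canonical Wnt signalling, a destruction complex built on the scaffolds APC and AXIN1 marks beta-catenin for degradation, and a Wnt ligand bound to a Frizzled receptor with LRP5 or LRP6 halts it. Beta-catenin then enters the nucleus and acts with TCF and LEF proteins, and several of the genes it switches on (AXIN2, NKD1, RNF43, ZNRF3) restrain the pathway in turn. In the liver the pathway is active in hepatocytes around the central vein, where GLUL is its classic marker, and CTNNB1 is often mutated in liver cancer. HepG2 itself carries an in-frame deletion in CTNNB1 that removes the phosphorylation sites used for degradation, so its beta-catenin is active without a ligand. The deposited values do not separate the altered from the normal allele.

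Total expected counts ranged from 7394281 to 8072321 in the atractylon libraries and from 5859575 to 8832092 in the control libraries. Expected counts are estimates of the reads that belong to each transcript. They were summed per gene and scaled by library size to CPM, the usual unit of counts relative to a library's total. In bulk RNA, fewer cells expressing a gene and less RNA per cell cannot be told apart. The 8 hepatocyte markers were all tested, with a summed level of 17789 to 23748 CPM in atractylon libraries and 18862 to 20383 CPM in control libraries. Of 8 markers of other cell types 4 were tested, with a summed level of 747 to 881 CPM in atractylon and 728 to 907 CPM in control libraries. Lysozyme (LYZ) made up most of that sum, at 734 to 866 CPM with atractylon and 715 to 897 CPM in controls, and the collagen gene COL1A2 had 0 counts in all 6 libraries. Whether the replicates came from separate cultures is not stated, so each p-value refers to the variation among these 6 samples alone, and that variation may be technical.

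None of the 10 genes changed beyond the spread between replicates in CPM. In edgeR (quasi-likelihood fit, p-values adjusted by Benjamini-Hochberg over all genes, threshold 0.05), 0 members passed in either direction (adjusted p = 0.9999 for each, n = 3 per group), and 0% of all genes tested passed. At an unadjusted p below 0.05 edgeR had 0 members, against 1.59% of all genes. DESeq2 also had 0 members there, against 0.829% of all genes, and limma 0 members, against 3.26%. The groups did not overlap in CPM for 0 of the 10 members, against 5.72% of all genes. Log2 fold changes of the members (atractylon minus control) ran from -0.15 to 0.15, with 3 positive and 7 negative values and a median of -0.031, beside a median of 0.012 over all genes. For 9 of the 10 the whole 95% interval of the change was smaller than 1.5-fold up or down, and for all 10 it was smaller than 2-fold, against 54.6% and 81.3% of all genes. Those shares were not matched to the members by level, and genes with few counts tend to have wider intervals. LGR5 was the member whose interval went past 1.5-fold.

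**Figure D1:**
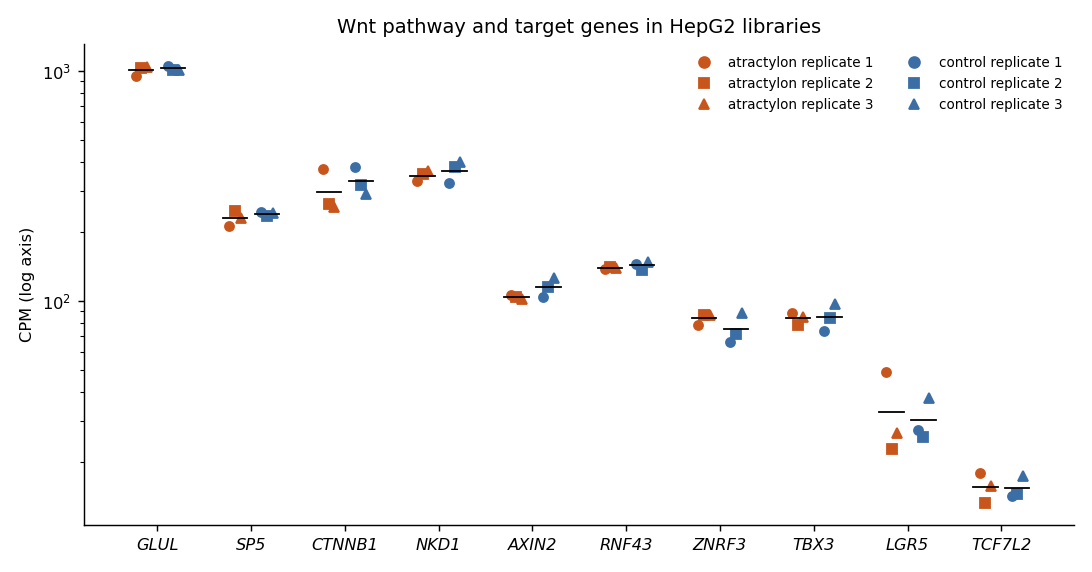
Level of each gene in CPM (log axis) in the 6 libraries, with atractylon libraries left of control libraries and a bar at each group mean. The points of the 2 groups overlap for each gene, and LGR5 and CTNNB1 spread most widely, with LGR5 from 22.6 to 49.2 CPM in the atractylon libraries.

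Beta-catenin, the effector of the pathway and a partner of cadherins at cell junctions, was read at high depth. CTNNB1 (ENSG00000168036, chromosome 3) was at 373, 264 and 255 CPM in atractylon replicates 1 to 3, against 380, 320 and 292 CPM in control replicates 1 to 3. Atractylon replicate 1 and control replicate 1 were the highest libraries, the other 2 atractylon libraries were the lowest of the 6, and the groups overlapped. The means were 297 ± 66.1 CPM with atractylon and 331 ± 45.4 CPM in controls (SD, n = 3 each), a log2 fold change of -0.15 ± 0.16 (SE) with a 95% interval of 0.708 to 1.14-fold.

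TCF7L2 (ENSG00000148737, chromosome 10) encodes the TCF protein that carries beta-catenin to DNA in many epithelial cells. It was the member with the fewest counts, 77 to 140 per library. Its level was 17.9, 13.2 and 15.6 CPM in the atractylon libraries, against 14.1, 14.5 and 17.3 CPM in the control libraries, so the groups spanned almost the same range. The log2 fold change was 0.02 ± 0.19 (SE), with an interval of 0.755 to 1.37-fold.

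The feedback inhibitors were next. AXIN2 (ENSG00000168646, chromosome 17), a scaffold of the destruction complex and the most used readout of the pathway, was at 106, 104 and 102 CPM with atractylon, against 104, 115 and 126 CPM in controls. The 3 atractylon values lay close together and below 2 of the 3 controls, and the lowest control fell within their range. The log2 fold change was -0.14 ± 0.11 (SE), and the interval of 0.767 to 1.07-fold held no change. NKD1 (ENSG00000140807, chromosome 16), which binds Dishevelled and dampens the signal, was at 330, 356 and 365 CPM with atractylon, against 324, 380 and 400 CPM in controls. Replicate 1 was the lowest library of both groups, and the log2 fold change was -0.07 ± 0.11 (SE).

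RNF43 and ZNRF3 are related membrane ubiquitin ligases that clear Frizzled receptors from the cell surface. RNF43 (ENSG00000108375, chromosome 17) was at 138, 140 and 139 CPM with atractylon, against 145, 136 and 148 CPM in controls, with a log2 fold change of -0.04 ± 0.10 (SE). It was among the steadiest members across libraries. ZNRF3 (ENSG00000183579, chromosome 22) was at 78.8, 86.8 and 86.3 CPM with atractylon, against 66.1, 71.9 and 88.4 CPM in controls. All 3 atractylon libraries were above 2 controls and below the third, and the means were 84.0 ± 4.50 and 75.4 ± 11.6 CPM (SD, n = 3 each). Its log2 fold change of 0.15 ± 0.13 (SE) was the largest positive value among the members, and the interval was 0.909 to 1.36-fold. The signs of the 2 ligases were opposite, and the difference between them was not tested.

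LGR5 (ENSG00000139292, chromosome 12), an R-spondin receptor that marks stem cells of the gut and is a Wnt target itself, varied most. It was at 49.2, 22.6 and 26.5 CPM with atractylon, against 27.3, 25.6 and 37.6 CPM in controls. The highest and the lowest of the 6 libraries were both treated ones. The means were 32.8 ± 14.4 CPM with atractylon and 30.2 ± 6.46 CPM in controls (SD, n = 3 each). Its log2 fold change was 0.12 ± 0.28 (SE), with an interval of 0.713 to 1.65-fold, and it turned to -0.30 when atractylon replicate 1 was left out.

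SP5, a zinc finger factor that binds GC boxes and limits Wnt output, and TBX3, a T-box factor linked to beta-catenin in liver tumours, are transcription factors that respond to the pathway. SP5 (ENSG00000204335, chromosome 2) was at 211, 245 and 228 CPM with atractylon, against 242, 233 and 241 CPM in controls, a log2 fold change of -0.07 ± 0.10 (SE). The values of TBX3 (ENSG00000135111, chromosome 12) were 88.2, 78.4 and 85.3 CPM with atractylon, against 74.1, 83.9 and 96.8 CPM in controls. Both the lowest and the highest TBX3 value were controls, and the log2 fold change was -0.02 ± 0.13 (SE).

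The letters that TCF and LEF proteins recognise could be read beside these values. The 250 bases upstream of each start in RefSeq (GRCh38.p14) were searched for CTTTGA and CTTTGT on both strands. The table held 9 windows for 5 of the members, CTNNB1, TCF7L2, GLUL, SP5 and RNF43. At least 1 match was found in 4 of the 9, against 22.8% of 35116 windows over all genes. The SP5 window held 4 matches, at 157, 147, 109 and 83 bases before the start, and 20 of the 35116 windows (0.0570%) held 4 or more. The matches did not overlap each other. The CTNNB1 window and both GLUL windows held none of these letters. The SP5 stretch is shown because it packs the matches together, and the single matches of RNF43 and TCF7L2 are shown for comparison. Each sequence runs 5′ to 3′ on the strand of its gene, and capitals mark the matches. A match is a description of letters, not a measured binding site, and binding was not measured here.

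SP5, chr2:170715168-170715271, plus strand: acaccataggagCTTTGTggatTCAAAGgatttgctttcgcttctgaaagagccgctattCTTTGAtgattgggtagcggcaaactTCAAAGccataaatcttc
RNF43, chr17:58417607-58417636, minus strand: gctccaccctcaCTTTGTcagcaggtagag
RNF43, second start, chr17:58402839-58402868, minus strand: tcattttctcccACAAAGgaaaacctcagc
TCF7L2, second start, chr10:113126488-113126517, plus strand: caaaatatcaggCTTTGTtcttttgattga

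GLUL (ENSG00000135821, chromosome 1) encodes glutamine synthetase, which makes glutamine from ammonia in hepatocytes around the central vein. It was at 949, 1029 and 1040 CPM with atractylon, against 1050, 1011 and 1008 CPM in controls. Control replicate 1 was the highest and atractylon replicate 1 the lowest library, and the groups overlapped in CPM. GLUL had a log2 fold change of -0.02 ± 0.09 (SE) with an interval of 0.851 to 1.14-fold. Its summed FPKM (a level per transcript length and library size) did not overlap. It was 682, 680 and 679 with atractylon, against 703, 698 and 686 in controls, and limma on log2 FPKM gave -0.03 (unadjusted p = 0.704). Over coding transcripts alone the FPKM of the groups overlapped, at 140, 147 and 158 against 167, 149 and 154.

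**Figure D2:**
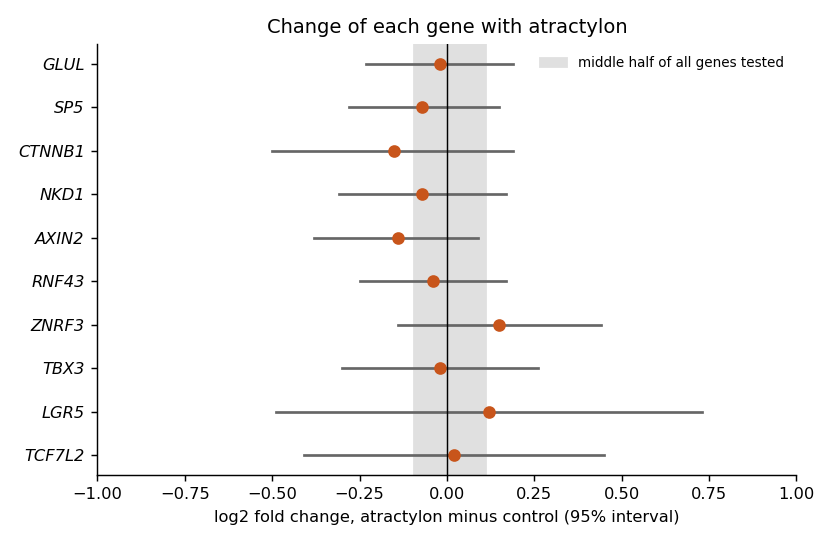
Log2 fold change of each gene (atractylon minus control, points) with its 95% interval (lines), and the span from the lower to the upper quartile of all genes tested (grey band). All 10 intervals cross 0, and LGR5 has the widest, from -0.49 to 0.73.

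Libraries of both groups differed in how levels followed GC content. For each library, the deviation of 12301 genes from their mean over the 6 libraries was correlated (Spearman) with transcript GC content, across genes, which are not independent replicates. The coefficients for replicates 1, 2 and 3 were -0.596, 0.595 and 0.393 with atractylon, against -0.421, 0.176 and 0.020 without it. LGR5 (44.6% GC), CTNNB1 (46.6%) and TCF7L2 (47.9%) had the lowest GC content of the members, and SP5 (66.2%) had the highest. In atractylon replicate 1, with the most negative correlation, LGR5 lay 0.70 and CTNNB1 0.27 above its mean over 6 libraries on the log2 scale, and SP5 lay 0.14 below its own. In atractylon replicate 2, LGR5 was at -0.42 and CTNNB1 at -0.23. Control replicate 1 shared the high CTNNB1 value, at 0.29, but LGR5, at -0.15, and TCF7L2, at -0.12, were below their means there. TCF7L2 was at 0.22 in atractylon replicate 1 and -0.22 in atractylon replicate 2. The part of the GC trend in these values was not tested gene by gene.

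Removing the GC trend of each library by an offset left CTNNB1 at a log2 fold change of -0.11 and LGR5 at 0.14, against -0.15 and 0.12 as counted. SP5 moved most, to -0.16 from -0.07, and 0 members passed the threshold. After that removal LGR5 was still at 43.5 CPM in atractylon replicate 1, against 25.7 and 28.4 CPM in the other treated libraries and 25.8, 26.3 and 37.0 CPM in controls. Without atractylon replicate 1, CTNNB1 had a log2 fold change of -0.35 by edgeR, with an unadjusted p of 0.00909 and an adjusted p of 0.382. In that fit 10.7% of all genes had an unadjusted p below 0.05, and the GC coefficients of both remaining treated libraries exceeded those of all 3 controls, so the treatment and the GC trend cannot be told apart there. With replicate 1 of both groups left out, CTNNB1 was at -0.24 (unadjusted p = 0.0240 by edgeR, adjusted p = 0.521) and AXIN2 at -0.22 (unadjusted p = 0.0483, adjusted p = 0.546), against 9.10% of all genes at an unadjusted p below 0.05. The GC coefficients left in that fit were 0.595 and 0.393 with atractylon, against 0.176 and 0.020 in controls. Treatment and the GC trend cannot be told apart in that fit either.

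**Figure D3:**
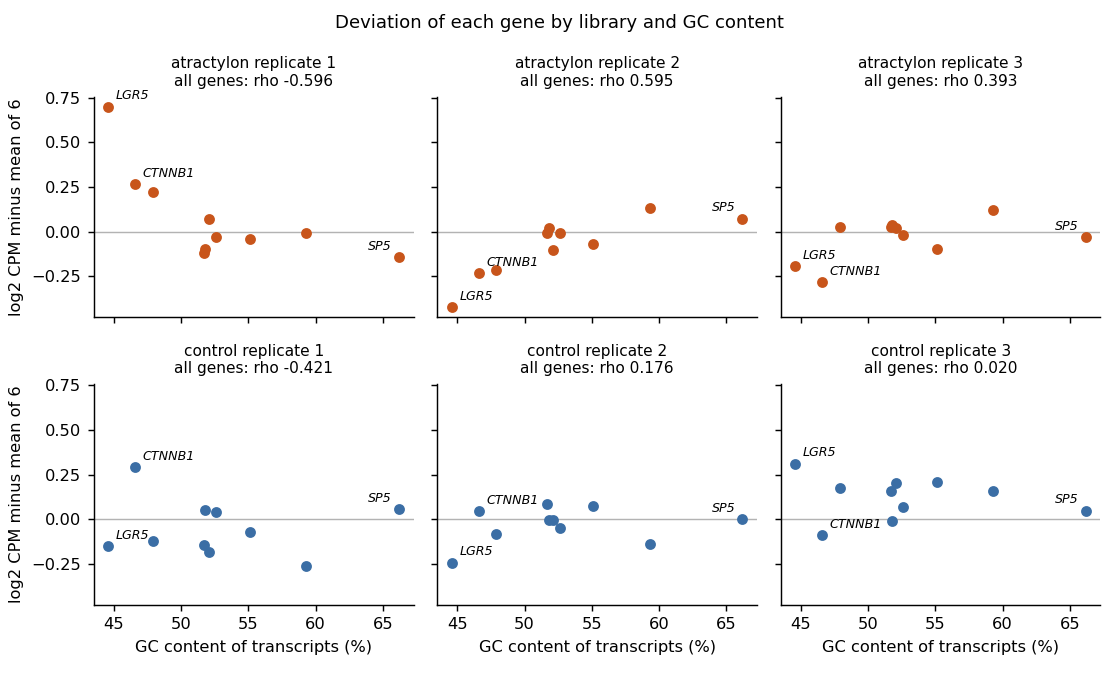
Deviation of each gene's log2 CPM from its mean over the 6 libraries, against the GC content of its transcripts, with atractylon libraries above control libraries and the Spearman correlation over all genes in each title. The low-GC genes LGR5 and CTNNB1 lie high in atractylon replicate 1 (0.70 and 0.27) and low in atractylon replicate 2 (-0.42 and -0.23).

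The table also allowed the genes to be read by transcript. It held 81 transcripts of the 10 genes, of which 47 were tested, with 17 positive and 30 negative fold changes. Over 44393 transcripts edgeR called 0 (0%), with 2.37% at an unadjusted p below 0.05, and of the 47 there were 0 called and 1 at an unadjusted p below 0.05. DESeq2 called 64 transcripts of the whole table, with 932 at an unadjusted p below 0.05, and none of the 64 belonged to the 10 genes. The groups did not overlap for 5 of the 47, against 8.61% of all transcripts. The values of single transcripts are the authors' division of shared reads, so those that share exons are not independent.

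The 1 at an unadjusted p below 0.05, chosen after its values were seen, was GLUL-202, a coding transcript with 3.12% of the gene's FPKM (a level per transcript length and library size). It was at 23.1, 29.2 and 27.5 FPKM with atractylon, against 12.6, 19.1 and 17.3 FPKM in controls (unadjusted p = 0.00754 by edgeR, adjusted p = 1.0000). The main coding transcript GLUL-203 was at 112, 116 and 127 FPKM with atractylon, against 146, 124 and 130 FPKM in controls, so the 2 lowest values of the more abundant coding form were treated libraries and the groups overlapped. The other 4 that did not overlap in CPM, likewise chosen after their values were seen, were GLUL-204 and AXIN2-206, with lower values in atractylon, and TCF7L2-209 and TCF7L2-220, with higher ones. TCF7L2-209 was at 1.31, 2.67 and 2.37 FPKM with atractylon and 0.0300, 0 and 0.660 FPKM in controls, from 8.28 to 15.4 expected counts per atractylon library and 0 to 4.58 per control library.

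Short non-coding transcripts took a large part of the FPKM of 2 members. GLUL-207, a processed transcript of 939 bases, held 53.4% of the summed GLUL value, at 379, 370 and 350 FPKM with atractylon and 376, 363 and 368 FPKM in controls. RNF43-204, a processed transcript of 497 bases, held 51.6% of the summed RNF43 value, at 22.4, 29.1 and 32.2 FPKM with atractylon and 33.5, 34.2 and 25.6 FPKM in controls. Their parts were smaller in expected counts, which are not divided by length. RNF43-204 had 42.9 to 59.3 expected counts per library, against 790 to 1201 for the gene. GLUL-207 had 1492 to 2206, against 5722 to 8156 for its gene. Coding transcripts made up 22.1% of the summed FPKM of GLUL, 47.6% of RNF43 and 72.4% of TBX3, and 88.2% or more of each of the other members. For this reason levels per length are compared here over coding transcripts alone. CTNNB1 was spread over 4 coding transcripts with more than 10% each, led by CTNNB1-204 (47.8%) and CTNNB1-202 (20.8%). The table held 15 of the 56 CTNNB1 transcripts and 21 of the 30 TCF7L2 transcripts of GENCODE 29, so their division into forms is partial. Reads assigned to table entries without a GENCODE 29 match are not in the gene totals, which may touch the level, fold change and rank of CTNNB1 and of TCF7L2.

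**Figure D4:**
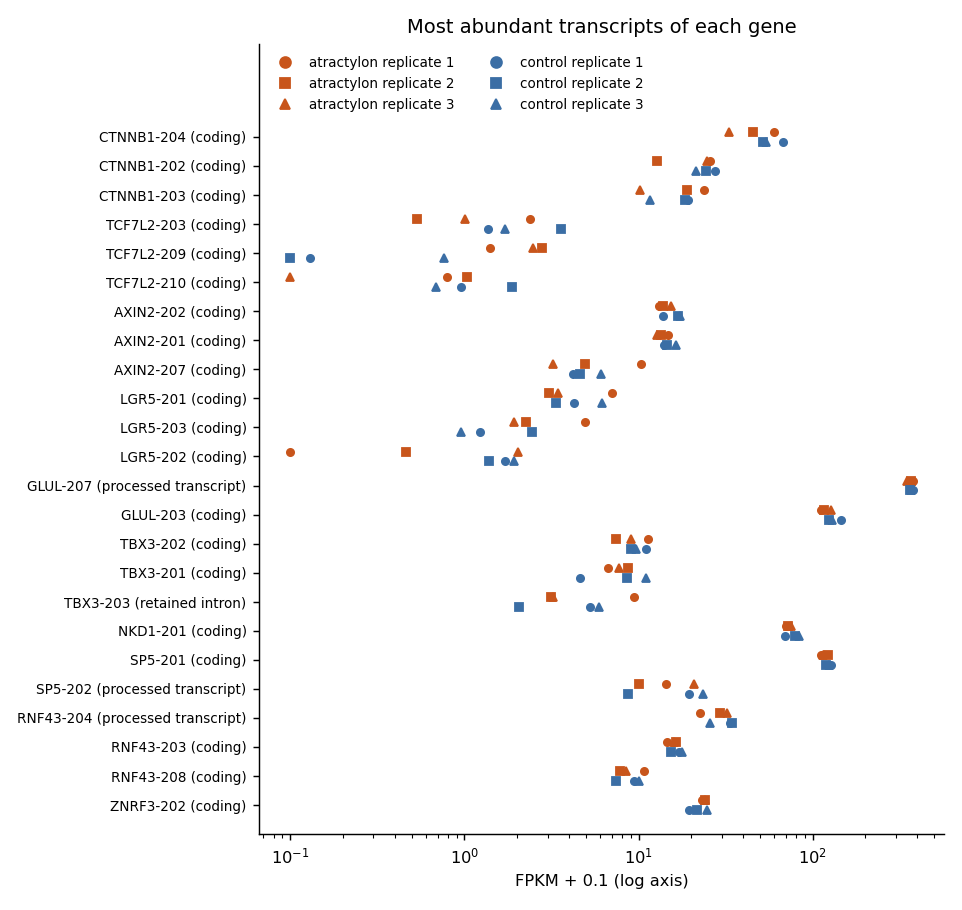
FPKM plus 0.1 (log axis) of up to 3 tested transcripts per gene with at least 10% of its summed FPKM, in each atractylon library (upper points of a row) and control library (lower points). GLUL-207 lies highest, between 350 and 379 FPKM, and the TCF7L2 forms are among the lowest and spread widely.

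Ranked by FPKM over coding transcripts, the members had the same order in atractylon and in control libraries. GLUL led with 148 ± 9.27 FPKM in atractylon and 157 ± 9.12 FPKM in control cells (SD, n = 3 each), followed by SP5 with 116 ± 5.49 and 124 ± 3.56 FPKM and CTNNB1 with 99.4 ± 24.7 and 113 ± 16.6 FPKM. NKD1 was at 72.2 ± 2.44 FPKM in atractylon and 77.4 ± 7.60 FPKM in control cells. AXIN2 was at 37.3 ± 3.71 and 41.9 ± 3.51 FPKM, RNF43 at 26.6 ± 0.773 and 27.8 ± 1.27 FPKM, and ZNRF3 at 25.8 ± 0.571 and 23.7 ± 3.08 FPKM, in the same order of groups. TBX3 stood at 16.8 ± 1.02 FPKM with atractylon and 17.7 ± 2.58 FPKM without. Lowest were LGR5, at 8.09 ± 3.23 and 7.51 ± 1.08 FPKM, and TCF7L2, at 7.37 ± 0.638 and 6.60 ± 1.30 FPKM. Neighbours whose ranges over the 6 libraries overlapped were SP5 and CTNNB1, RNF43 and ZNRF3, and LGR5 and TCF7L2. SP5 was above CTNNB1 in 4 of 6 libraries and LGR5 above TCF7L2 in 4 of 6, so the order within these pairs is not set, whereas RNF43 was above ZNRF3 in 6 of 6. The other neighbours did not overlap.

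The closest relatives of the members were set beside them on the same scale, FPKM over coding transcripts. Among the TCF and LEF factors TCF7 was the most abundant, at 18.0 ± 1.31 FPKM in atractylon and 18.8 ± 4.52 FPKM in control cells, above TCF7L2. TCF7L1 was at 0.423 ± 0.231 and 0.497 ± 0.135 FPKM, and LEF1 at 0.233 ± 0.208 and 0.0667 ± 0.0611 FPKM, both below 1 FPKM. Over all transcripts LEF1 had the other direction, at 0.513 FPKM with atractylon and 0.853 FPKM in controls, and coding forms were 22.0% of it. The constitutive scaffold AXIN1, at 35.3 ± 2.72 and 33.1 ± 1.11 FPKM, stood near its inducible relative AXIN2 on this scale. AXIN1 was higher than AXIN2 over all transcripts, at 56.0 FPKM in atractylon and 53.2 FPKM in control cells, against 39.1 and 45.1 FPKM. NKD2, at 1.43 ± 0.217 and 1.20 ± 0.445 FPKM, was far below NKD1. Over all transcripts NKD2 was at 2.55 FPKM in atractylon and 3.67 FPKM in control cells. LGR4, the broadly expressed R-spondin receptor, was at 11.5 ± 4.67 FPKM in atractylon and 11.7 ± 0.172 FPKM in control cells, beside LGR5. Of these relatives 0 passed the threshold.

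Other genes of the pathway and of its liver programme were read from 9 lists of 169 genes, of which 113 were tested. With edgeR 0 were higher and 0 were lower, against 0% of all genes. At an unadjusted p below 0.05 there was 1 of 113, against 1.59% of all genes, and the groups did not overlap for 4 of 113, against 5.72%. Of the 113, 62 had positive and 51 negative fold changes, with a median of 0.016, beside 0.012 over all genes. Each list median is followed by its range when 1 library, or replicate 1 of both groups, was left out, and outside the ligands and receptors each range included both signs. With the GC trend of each library removed, the ligand median was 0.202, against 0.259 as counted. The receptor median was then 0.027, against 0.081 as counted.

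Upstream of beta-catenin, few ligands were measurable. Of 21 genes for Wnt ligands and their secretion 5 were tested, with 4 positive values and a median log2 fold change of 0.259 (0.037 without atractylon replicate 2, 0.331 without control replicate 3). These included WNT7B at 2.75 ± 0.242 CPM in atractylon and 1.96 ± 0.590 CPM in control cells, WNT3 at 9.66 ± 1.57 and 11.5 ± 0.850 CPM, and the ligand acyltransferase PORCN at 3.87 ± 0.460 and 3.20 ± 0.578 CPM. Of 25 R-spondin, receptor and Dishevelled genes 14 were tested, with a median of 0.081 (range 0.019 to 0.124), and none of the 4 R-spondin genes was among them. The co-receptor LRP5 was at 753 ± 69.0 CPM with atractylon and 669 ± 69.3 CPM in controls, and ROR1, a receptor of non-canonical Wnt signalling, at 1.59 ± 0.0745 and 1.14 ± 0.0572 CPM. DVL1, which relays the signal from Frizzled, had a log2 fold change of 0.14 ± 0.11 (SE). The ROR1 groups did not overlap in CPM, but its FPKM was 0.817 with atractylon and 0.827 in controls.

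Among 18 secreted and surface inhibitors 9 were tested, with a median of -0.020 (range -0.122 to 0.119). DKK1, a secreted LRP5 and LRP6 antagonist, was at 382 ± 33.9 CPM with atractylon and 421 ± 48.9 CPM in controls. SFRP5, which binds Wnt ligands, was at 3.10 ± 1.34 and 2.21 ± 0.492 CPM, and the DKK1 receptor KREMEN1 had a log2 fold change of 0.13 ± 0.13 (SE). In the destruction complex and its turnover machinery 16 of 17 were tested, with 9 positive and 7 negative values and a median of 0.026 (-0.153 without replicate 1 of both groups, 0.068 without atractylon replicate 2). APC was at 14.6, 5.01 and 7.88 CPM in atractylon and 4.59, 6.93 and 8.28 CPM in control cells, with 1 treated library above the rest, and its FPKM ran the other way, at 2.04 with atractylon and 2.50 in controls. The kinase GSK3A was at 154 ± 27.1 and 138 ± 12.3 CPM, and AXIN1 at 146 ± 16.8 and 134 ± 1.07 CPM. None of these passed.

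Nuclear partners had 20 of 22 genes tested and a median of -0.017 (-0.088 without control replicate 1, 0.129 without control replicate 3), with TBL1X, a corepressor exchange factor, at 82.2 ± 2.80 CPM with atractylon and 89.5 ± 8.70 CPM in controls. The corepressor CTBP1 was at 303 ± 32.3 and 282 ± 13.0 CPM, and CTNNBIP1, which blocks beta-catenin from TCF, at 67.1 ± 4.14 and 62.1 ± 3.42 CPM. The junction partners had 7 of 8 tested and a median of -0.027 (-0.239 without replicate 1 of both groups, 0.098 without control replicate 3). Alpha-catenin (CTNNA1) was at 328 ± 11.9 CPM with atractylon and 337 ± 27.4 CPM in controls, E-cadherin (CDH1) at 28.5 ± 2.04 and 29.8 ± 7.60 CPM, and N-cadherin (CDH2) at 31.3 ± 4.95 and 32.2 ± 7.17 CPM, with an FPKM of 8.84 and 8.83.

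General Wnt targets had 19 of 24 genes tested, with 10 positive and 9 negative values and a median of 0.020 (range -0.027 to 0.030). The gene with an unadjusted p below 0.05 was ZNRF2, a ubiquitin ligase of the ZNRF family. It was at 13.8, 10.2 and 15.3 CPM with atractylon, against 7.16, 8.29 and 10.4 CPM in controls, a log2 fold change of 0.59 ± 0.23 (SE, unadjusted p = 0.0282 by edgeR, adjusted p = 0.9999). The groups overlapped, and whether ZNRF2 responds to the pathway in these cells was not tested. The surface protein PROM1 was at 2.65, 1.82 and 2.12 CPM with atractylon, against 0, 1.51 and 0.865 CPM in controls, and the ion transporter SLC12A2 at 7.70 ± 2.38 and 5.32 ± 1.06 CPM. PROM1 had few counts, 20, 12 and 14 with atractylon and 0, 10 and 7 in controls, and an interval of 0.970 to 7.14-fold. The cell cycle gene CCND1, chosen after its values were seen, was at 307 ± 14.5 CPM in atractylon and 318 ± 29.3 CPM in control cells, and its FPKM was 219 in atractylon and 206 in control cells.

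Genes of the central-vein programme, with 14 of 20 tested, had a median of 0.034 (-0.058 without atractylon replicate 1, 0.082 without atractylon replicate 2), and genes of the periportal programme, which the pathway keeps down in liver, had 9 of 14 tested and a median of 0.031 (-0.039 without atractylon replicate 2, 0.150 without replicate 1 of both groups). Among the first, CYP27A1 was at 520 ± 68.1 CPM with atractylon and 486 ± 23.3 CPM in controls, and GPT2 at 808 ± 72.5 and 770 ± 18.4 CPM. CYP7A1, the rate-limiting enzyme of bile acid synthesis, was at 1.87 ± 1.02 and 2.54 ± 0.886 CPM. Among the second, the urea cycle enzyme CPS1 was at 17.5 ± 6.80 and 13.7 ± 2.30 CPM, and its partner OTC at 0.524 ± 0.326 and 0.784 ± 0.759 CPM. PCK1, an enzyme of glucose synthesis, was at 16.9 ± 0.875 CPM with atractylon and 15.2 ± 0.160 CPM in controls, without overlap in CPM, whereas its FPKM was 6.24 with atractylon and 6.27 in controls.

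**Figure D5:**
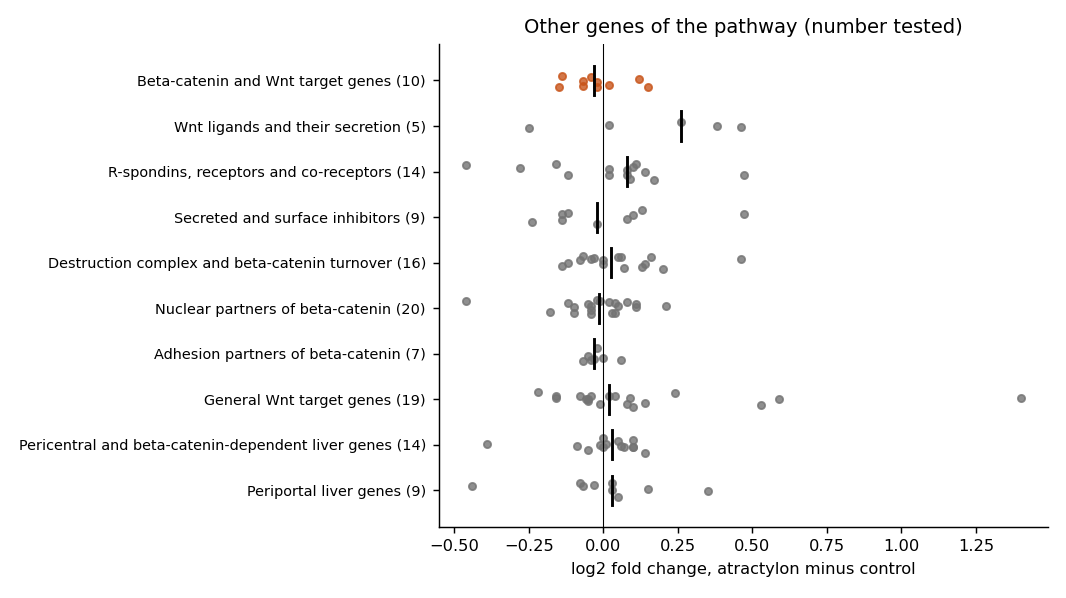
Log2 fold change (atractylon minus control) of each tested gene of the Wnt lists (points) with the median of each list (bar), below the 10 genes described above. The 10 genes lie between -0.15 and 0.15, and the largest value is that of PROM1 at 1.40.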

How the data were processed

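RNA was measured in 6 libraries, 3 with atractylon and 3 controls, grouped by their titles. Per the labels' protocols, total RNA was used and a SMART-Seq v4 low-input kit is named for extraction. The authors deposited expected counts and FPKM values per transcript, per the file headers. The tools listed in the submitters' processing notes, with no role stated, were HISAT2 2.0.1, cutadapt 1.9.1, DESeq2 1.6.3 and bcl2fastq 2.17.1.14, and the build was hg19. Which program counted, on which annotation and whether by strand is not given in the sources used here, so reads of overlapping or antisense genes cannot be told apart.

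Of 180253 transcripts 153245 (85.0%) matched GENCODE 29 (GRCh38) by identifier, and those unmatched held 8.70% to 9.07% of counts. Gene coordinates are not given because the builds differ. Counts and FPKM were summed per gene, and counts were rounded. Genes that reached 0.5 FPKM in 3 or more libraries were tested with edgeR 4.0.16 (trimmed-mean scaling, quasi-likelihood, group as the only term, 2-sided, Benjamini-Hochberg over all genes, threshold 0.05). Transcripts were tested in the same way. DESeq2 1.42.0 and limma 3.58.1 on log2(FPKM + 0.5), which understates changes of low genes, were alternatives, and all 3 were tested on simulated data. The simulated counts held no GC trend, so that test does not cover this feature of the libraries. CPM used effective library sizes. The GC trend was fitted by lowess (span 0.4) of log2 CPM (prior count 2) on transcript GC content. Intervals are of edgeR's fold change. Replicates differed by more than sampling noise (chi-square per degree of freedom of 3.43 to 19.61).

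The members, the pathway lists and the tests were chosen with earlier results of these data known. Named genes are all members, up to 3 tested genes per list with the smallest unadjusted p, genes with an unadjusted p below 0.05, and tested TCF and LEF genes, plus genes and transcripts said to be picked with their values in view, and close relatives of members shown for level. Named transcripts hold at least 10% of their gene's FPKM, up to 3 per gene, apart from those picked with their values in view. Promoter sequences are from a RefSeq table (GRCh38.p14), in which 5 of the 10 members were matched.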

Additional observations from a re-analysis of the deposited data

How the results depend on the processing

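In 17 refits, 0 members and 0 pathway genes passed the threshold, with a lowest adjusted p of 0.382 among members. CTNNB1, AXIN2, NKD1, SP5, RNF43 and ZNRF3 kept their direction in all 17, which reuse the same libraries. Some of these values were near no change, with log2 fold changes reaching -0.00 for SP5 and -0.01 for NKD1 and RNF43. On log2 FPKM (pseudocounts 0.5 and 0.1), TBX3 turned to 0.05 in both. With replicates left out, log2 fold changes ranged from -0.15 to 0.12 for TCF7L2, -0.37 to 0.31 for LGR5, -0.06 to 0.04 for GLUL and -0.14 to 0.09 for TBX3, and each turned sign in at least 1 of these, among them LGR5 (-0.30), TCF7L2 (-0.09) and GLUL (0.02) without atractylon replicate 1 and TBX3 without control replicate 3 (0.09). Genes called ranged from 0 to 1 in each direction. These calls came without atractylon replicate 1 (1 lower) and without replicate 1 of both groups (1 higher, 1 lower), and none was a member. Over all transcripts DESeq2 called 64 and the fit with no FPKM filter 2, against 0 as counted, and none belonged to the members. The causes were not tested. With the replicate number as a block, 0 genes passed (297 at an unadjusted p below 0.05, against 196 without it) and CTNNB1 was at -0.17. Same-numbered libraries correlated in their deviations at 0.132, 0.176 and 0.011. The values for replicates 1 and 2 were the highest of all pairs, and atractylon replicate 3 correlated slightly better with control replicate 2 (0.019). With the GC trend removed, same-numbered libraries were at -0.053, 0.087 and -0.016. The highest pair was then atractylon replicate 1 with control replicate 3 (0.107), so the numbers were not taken to pair samples. The intervals are widest for LGR5, TCF7L2 and CTNNB1, and values of a few counts, such as LEF1, set no limit. The other filters, scalings, DESeq2, the GC offset and the block turned no member's direction.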
